A study of Mus musculus with 12 samples.

Results

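The 9 genes described here, *Atf3*, *Atf4*, *Jdp2*, *Batf*, *Batf2*, *Batf3*, *Maff*, *Mafg* and *Mafk*, are 9 of the 21887 protein-coding genes of the mouse RefSeq annotation (GRCm38.p6). They were chosen by family: a FRA-1 peak belonged to a gene if the authors' tables assigned it there or if it lay within 20 kb of the gene body. By this rule the 9 genes held 71 of the 300608 sites of the series, a site being the stretch covered by peaks that touched or overlapped in any replicate. All 9 assigned segments that the authors listed for these genes (4 of the 9 genes: *Atf3*, *Atf4*, *Batf3* and *Mafk*) lay inside those windows.

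FRA-1, the product of *Fosl1*, is a basic leucine zipper (bZIP) protein of the AP-1 family and binds DNA as a dimer. ATF3, ATF4, JDP2, the BATF proteins and the small MAF proteins carry the same kind of domain and choose partners within and outside their own subfamily. ATF3 is an immediate stress-induced repressor of inflammatory genes in macrophages, ATF4 drives the integrated stress response, and JDP2 is a repressive partner of JUN proteins. BATF, BATF2 and BATF3 lack a transactivation domain and act with JUN and IRF proteins, and MAFF, MAFG and MAFK pair with NRF2 or BACH proteins at antioxidant response elements. ChIP-seq measured where FRA-1 was bound near these genes and not how strongly the genes were expressed, so the labelled cell type could not be checked by expressed markers.

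The cells were peritoneal macrophages of 8-week-old mice, recorded as male or female on a 129/C57Bl6 background in the sample records and as C57Bl/6 in the design text. The records describe elicitation with thioglycollate for 72 h before lavage, while the design text names lavage alone, and in both the cells that adhered overnight were used. They were left unstimulated, were given LPS (bacterial lipopolysaccharide) for 1 h, or received apoptotic cells for 1 h at a ratio of 1:5, with 3 replicates each and no genetic change in any group. The records list the same animals in each condition. The LPS dose is given as 10 µg/mL in one place and as 1 µg/mL in another. Pooled input DNA, 3 samples, entered no comparison.

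Each replicate carried 20981 to 79474 peaks, and the number of reads behind them is unknown. Replicates are numbered by their order in the tables, which do not name the animals. Each peak has a score as the authors deposited it (its formula is not given in the sources used here), with a median of 131.45 over 375170 peaks. Scores came in steps, and the commonest score of each replicate covered 8.26 to 14.4% of its peaks. The replicates also fell into a class with narrow peaks (smallest width 104 to 116 bp; unstimulated 3, LPS 1, LPS 3 and apoptotic cells 3) and a class with wide peaks (158 to 172 bp; the other 5). The median peak width was 113 to 140 bp in 3 of the narrow replicates but 172 bp in apoptotic cells 3, against 190 to 223 bp in the wide class.

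None of the promoters overlapped a FRA-1 site. RefSeq (GRCm38) lists 12 promoters for 8 of the 9 genes, with 3 starts each for *Jdp2* and *Maff* and no entry for *Batf2*. The 300 bp windows around these starts overlapped 0 sites, against 4.68% of all 32851 listed promoters. With only 12 promoters, a count of 0 is near that share. Both strands of the 250 bases before each start were searched for the AP-1 element TGANTCA, the ATF/CREB element TGACGTCA and its shorter part TGACG, which is also counted within TGACGTCA. No promoter of the 9 genes held TGANTCA, against 6.75% of all promoters, and 1 of the 12, a *Maff* promoter, held TGACGTCA, against 1.55%. TGACG, a search added after the sequences had been seen, was present in 8 of the 12 (*Atf3*, *Atf4*, *Batf*, *Jdp2*, *Mafg*, *Mafk* and 2 *Maff* promoters), against 17.8% of all promoters. The long MAF recognition element was found in 0 of the 12 and in 0.00304% of all promoters. Letters in a window show neither binding nor its absence.

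The last 150 bases before the start are shown for the 4 genes with the match nearest to it, as the stretch where FRA-1 peaks were not listed in any replicate. Each runs 5′ to 3′ on the gene's strand, and capitals mark TGACG, its reverse complement, or TGACGTCA.
*Atf3* (chr1:191183334-191183483, minus strand; match begins 7 bp before the start): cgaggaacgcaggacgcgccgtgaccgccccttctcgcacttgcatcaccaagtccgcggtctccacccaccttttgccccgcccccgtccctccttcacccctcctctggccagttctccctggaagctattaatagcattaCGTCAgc
*Atf4* (chr15:80255034-80255183, plus strand; 12 bp): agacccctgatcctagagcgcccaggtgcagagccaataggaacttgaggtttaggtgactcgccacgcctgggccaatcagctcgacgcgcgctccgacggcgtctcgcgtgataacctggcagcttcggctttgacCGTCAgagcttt
*Mafg* (chr11:120633548-120633697, minus strand; 22 bp): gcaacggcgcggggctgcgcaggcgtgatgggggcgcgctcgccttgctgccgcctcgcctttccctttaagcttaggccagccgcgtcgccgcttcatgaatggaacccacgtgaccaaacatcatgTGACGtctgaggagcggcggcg
*Maff* (chr15:79347370-79347519, plus strand, second of the 3 listed starts; 29 bp): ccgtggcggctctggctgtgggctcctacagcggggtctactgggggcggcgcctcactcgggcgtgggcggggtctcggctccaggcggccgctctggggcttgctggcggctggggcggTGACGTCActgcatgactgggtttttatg

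The match lay in its reverse complement form in *Atf3* and *Atf4*, in forward form in *Mafg*, and as the full palindrome in *Maff*.

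At *Atf4* and *Atf3*, the numbers of FRA-1 peaks overlapped between all 3 conditions. *Atf4* (chr15:80255184-80257545) had 0, 3 and 1 peaks in the unstimulated replicates, 1, 0 and 4 after LPS, and 1, 1 and 3 with apoptotic cells. Its 14 peaks in all were the most of the 9 genes, and no condition stood apart (exact permutation test, two-sided, p = 1 in each comparison). *Atf3* (chr1:191170296-191183333) held the fewest, with 1, 0 and 1 unstimulated, 1, 1 and 0 after LPS, and 0, 0 and 1 with apoptotic cells. No *Atf3* peak shared its position with another replicate: the 5 peaks formed 5 separate sites, the closest 2187 bp inside the gene from the start and the highest-scoring (141.29, unstimulated 3) 10405 bp inside it. That score stood at the 43.8th percentile of its replicate.

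The most widely shared site of the 9 genes lay at *Atf4*. It was centred 12578 bp upstream of the start (chr15:80242479-80242734), inside *Mief1*, a regulator of mitochondrial dynamics, whose listed start was closer (8526 bp). Peaks were listed in unstimulated replicates 2 and 3 (scores 107.29 and 86.43), LPS replicates 1 and 3 (136.64 and 226.93) and apoptotic cells replicate 1 (110.09). All 5 peaks had 196 bp in common. It was the only one of the 71 sites with a peak in all 3 conditions (8141 of all 300608 sites had one). It was also the only one with peaks in 2 unstimulated replicates (4170 of all sites had peaks in 2 or more). The other 9 *Atf4* sites were each seen in 1 replicate, the nearest 1329 bp upstream of the start (apoptotic cells 3, score 111.27).

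*Jdp2* (chr12:85598656-85639878) had no peak in any unstimulated replicate, 3, 0 and 3 after LPS, and 0, 1 and 1 with apoptotic cells. LPS replicates 1 and 3 were high and LPS replicate 2 was at 0, so the LPS and unstimulated ranges met at 0 and the difference did not pass the test (p = 0.4 in each comparison, exact permutation test, two-sided; the smallest p that 3 against 3 allows is 0.1). Its peaks fell on few positions: 8 peaks formed 4 sites, and 2 of them recurred. The site 5977 bp upstream of the nearest start (chr12:85593046-85593210) carried scores of 215.27 and 342.41 in LPS replicates 1 and 3 and 128.94 in apoptotic cells 2. The value of 342.41 was the highest score at any of the 9 genes (87.9th percentile of LPS replicate 3). A site inside the gene, 14404 bp after the start (chr12:85614347-85614497), scored 136.64 and 265.27 in the same LPS replicates and 111.27 in apoptotic cells 3, and was the only recurrent site within the body of any of the 9 genes. For both sites, 2 of 3 LPS against 0 of 3 unstimulated replicates gave p = 0.4 (Fisher's exact test, two-sided), the only value this split can give.

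**Figure D1:**
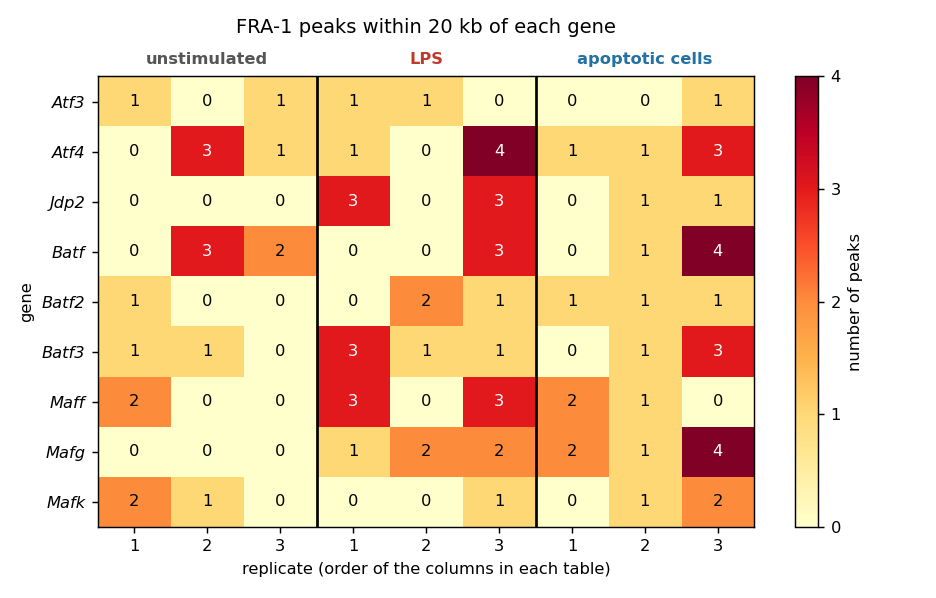
Number of FRA-1 peaks within 20 kb of each gene (rows, ordered by family) in each of the 9 replicates (columns, grouped by condition), with the number written in each cell. Mafg has 0 in every unstimulated replicate and 1 to 4 in every stimulated one, and Jdp2 and Maff have 3 in LPS replicates 1 and 3 and 0 in LPS replicate 2.

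No BATF gene separated the conditions. *Batf* (chr12:85686720-85709087), which T helper and B cell programmes need, had 0, 3 and 2 peaks unstimulated, 0, 0 and 3 after LPS, and 0, 1 and 4 with apoptotic cells. At least 1 replicate of each condition was at 0 and at least 1 reached 3. Its 13 peaks formed 11 sites, of which 9 were seen once and 2, within the gene, in 2 replicates of different conditions. One of these (chr12:85693091-85693332) scored 150.97 in unstimulated 3 and 97.48 in LPS 3, and the other (chr12:85694082-85694296) scored 102.80 in LPS 3 and 154.25 in apoptotic cells 2. All 4 peaks of apoptotic cells 3 lay downstream of the gene, and one of them (chr12:85718945-85719069, 32287 bp from the start) had the gene's highest score, 237.78, at the 97th percentile of that replicate.

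*Batf2* (chr19:6164397-6172476), a partner of IRF1 in activated macrophages, had 1, 0 and 0 peaks unstimulated, 0, 2 and 1 after LPS, and 1, 1 and 1 with apoptotic cells. Its 7 peaks formed 7 sites and none recurred; the highest score was 190.65 in apoptotic cells 1 (chr19:6148564-6148793). Unstimulated replicate 1 and the apoptotic cell replicates were level at 1 (exact permutation test, two-sided, p = 0.4; p = 0.7 for LPS against unstimulated).

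*Batf3* (chr1:191098414-191108943), required for cross-presenting dendritic cells, had 1, 1 and 0 peaks unstimulated, 3, 1 and 1 after LPS, and 0, 1 and 3 with apoptotic cells. LPS replicates 2 and 3 stood level with unstimulated replicates 1 and 2 (exact permutation test, two-sided, p = 0.6; p = 0.9 for apoptotic cells against unstimulated). Of its 10 sites, 1 recurred, 17178 bp upstream of the start (chr1:191081083-191081389) and inside the neighbouring gene *Nsl1*, a kinetochore component. It scored 116.32 and 184.30 in LPS replicates 1 and 3 and was listed in no unstimulated and no apoptotic cell replicate (Fisher's exact test, two-sided, p = 0.4 for either comparison). A split of 2 against 0 of 3 replicates always gives this value. The gene's highest score, 189.09, came from LPS replicate 2 at a different position (chr1:191127513-191127711).

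Among these genes are 2 pairs of genomic neighbours. *Batf3* and *Atf3* are 61.4 kb apart on chromosome 1, and *Jdp2* and *Batf* are 46.8 kb apart on chromosome 12, so that no windows overlapped. After LPS, *Batf3* had 3, 1 and 1 peaks and *Atf3* 1, 1 and 0, and *Jdp2* had 3, 0 and 3 and *Batf* 0, 0 and 3. Both pairs were thus level in LPS replicate 2, and *Jdp2* and *Batf* also in LPS replicate 3.

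**Figure D2:**
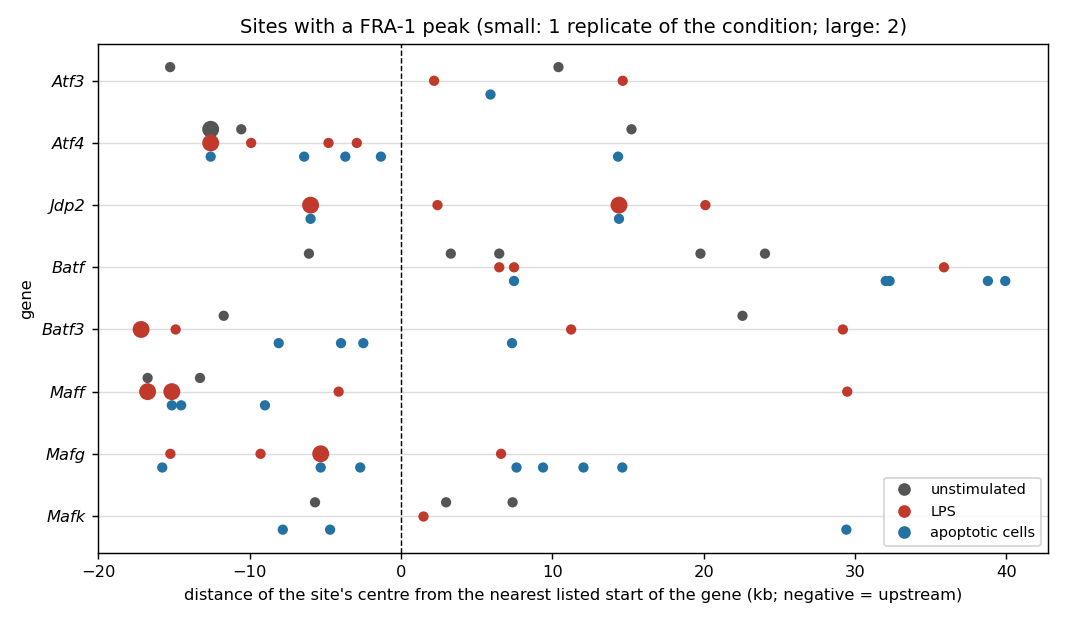
Position of every site relative to the nearest listed start of 8 genes (Batf2 has no listed start), in kb, upstream to the left and the dashed line at the start. Each point is 1 site in 1 condition (grey unstimulated, red LPS, blue apoptotic cells), large where 2 replicates of that condition had a peak; the 7 recurrent sites are large in LPS, one of them also unstimulated, and no site lies on a start.

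*Mafg* was the only one of the 9 genes whose replicates did not overlap between conditions. It (chr11:120625117-120634955) had 0, 0 and 0 peaks unstimulated, 1, 2 and 2 after LPS, and 2, 1 and 4 with apoptotic cells. Its mean was 0 without stimulation, 1.67 ± 0.577 for LPS and 2.33 ± 1.53 for apoptotic cells (SD, n = 3 replicates). In a two-sided exact permutation test, unstimulated against either stimulus gave p = 0.1, the smallest possible, with more peaks in 3 of 3 replicates of each, and the LPS and apoptotic cell replicates overlapped (p = 0.9). After Benjamini-Hochberg adjustment of this exact permutation test over all 21887 genes, the p-values were 0.98 for LPS and 1 for apoptotic cells, and 27 such tests were made on the 9 genes. Both comparisons share the unstimulated replicates. Within the narrow class, unstimulated 3 had 0 peaks against 1 and 2 in LPS replicates 1 and 3 and 4 in apoptotic cells 3. In the wide class, unstimulated 1 and 2 had 0 against 2 in LPS 2 and 2 and 1 in apoptotic cells 1 and 2. With peaks scoring under 100 left out, or with only those above their replicate's median, *Mafg* no longer separated the groups in either comparison.

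The *Mafg* peaks were spread over positions. Its 12 peaks formed 10 sites, of which 9 were seen in 1 replicate each, and 5 of the 10 lay within 1 kb of the listed start of a neighbouring gene (*Sirt7*, *Pycr1* or *Myadml2*). The recurrent site was centred 5307 bp upstream of the listed start (chr11:120638681-120639028) inside *Pycr1*, which makes proline, and scored 77.50 and 304.61 in LPS replicates 1 and 3 and 73.64 in apoptotic cells 2. The scores stood at percentiles 13, 83.3 and 6.64 of their replicates, so that 1 of the 3 peaks was high and the others low.

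*Maff* (chr15:79346621-79359078) had 2, 0 and 0 peaks unstimulated, 3, 0 and 3 after LPS, and 2, 1 and 0 with apoptotic cells. As at *Jdp2*, LPS replicates 1 and 3 were high and LPS replicate 2 was at 0 (p = 0.4 for LPS against unstimulated, exact permutation test, two-sided; p = 1 for apoptotic cells). Both of its recurrent sites were upstream and nearer to the start of *Pla2g6*, a phospholipase. The first, 16746 bp upstream (chr15:79329785-79329965; 1504 bp from the *Pla2g6* start), scored 124.13 and 203.59 in LPS replicates 1 and 3 and 93.12 in unstimulated 1. The second, 15146 bp upstream (chr15:79331292-79331659), scored 222.56 and 154.95 in the same LPS replicates and 129.84 in apoptotic cells 2. The other 5 sites were seen once, and the nearest lay 4121 bp upstream.

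*Mafk* (chr5:139791536-139802653) had 2, 1 and 0 peaks unstimulated, 0, 0 and 1 after LPS, and 0, 1 and 2 with apoptotic cells. Its LPS mean was the only one of the small MAF genes below the unstimulated mean, 0.333 ± 0.577 against 1 ± 1 (SD, n = 3), and the ranges overlapped (exact permutation test, two-sided, p = 0.7). None of its 7 sites recurred; the nearest was 1470 bp after the start (LPS 3), and the highest score was 154.25 in apoptotic cells 2 (chr5:139786756-139786943).

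Per gene, the 9 genes had a median of 11 peaks over the 9 replicates, against 9 over all genes (interquartile range 6 to 16), in windows of median 51118 bp against 57169 bp. The unstimulated replicates had 7, 8 and 4 peaks at the 9 genes, the LPS replicates 12, 6 and 18, and the apoptotic cell replicates 6, 8 and 19. The means were 6.33 ± 2.08, 12 ± 6 and 11 ± 7 (SD, n = 3), and the conditions overlapped. The ratio of means was 1.89 for LPS over unstimulated and 1.74 for apoptotic cells over unstimulated, where the total number of peaks had ratios of 1.99 and 2.03. For LPS over apoptotic cells it was 1.09 against 0.98. Scaled to 10000 peaks of the replicate, the mean was 2.66 ± 1.2 unstimulated, 2.33 ± 0.716 for LPS and 2.13 ± 0.579 for apoptotic cells (SD, n = 3), so that the direction turned (ratios 0.873 and 0.801) and the spread exceeded the differences. Without apoptotic cells replicate 3 the ratio of apoptotic cells over unstimulated was 1.11 and that of LPS over apoptotic cells 1.71.

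Peak width class moved with these sums in both stimulated groups. In the narrow class, unstimulated 3 had 4 peaks, LPS replicates 1 and 3 had 12 and 18, and apoptotic cells 3 had 19. In the wide class, unstimulated 1 and 2 had 7 and 8, LPS 2 had 6, and apoptotic cells 1 and 2 had 6 and 8. Per 10000 peaks, the narrow class had 1.41 in unstimulated 3, 2.61 and 2.86 in the LPS replicates and 2.39 in apoptotic cells 3, so that the stimulated replicates were higher. The wide class had 2.76 and 3.81 unstimulated, 1.51 in LPS 2, and 1.47 and 2.54 in the apoptotic cell replicates, all lower than without stimulation. The scaled means were thus lower with stimulation in the wide class alone. The parts of the width class and of the total number of peaks in the result were not tested.

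**Figure D3:**
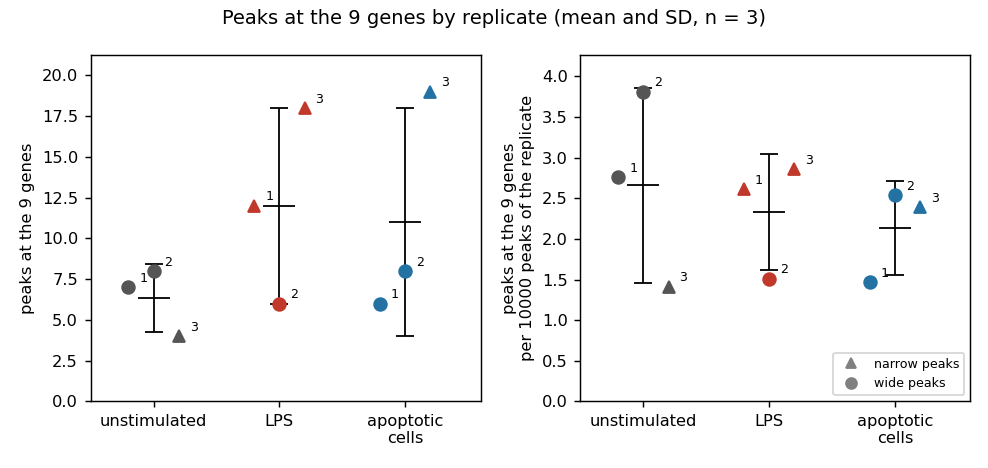
Left, FRA-1 peaks at the 9 genes in each replicate; right, the same per 10000 peaks of that replicate (numbered points; triangles narrow-peak and circles wide-peak replicates; bars mean and SD, n = 3). LPS 3 and apoptotic cells 3 reach 18 and 19 peaks on the left, and on the right the replicates of the 3 conditions overlap between 1.41 and 3.81.

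The calls at the 9 genes were set beside the share of all genes. In the comparison of LPS with unstimulated, 1 of the 9 genes (*Mafg*) had more peaks in every LPS replicate than in every unstimulated replicate, where 9.87% of all genes did, and 0 had fewer, where 0.187% did. For apoptotic cells against unstimulated, 1 of 9 (*Mafg*) was higher throughout, against 6.57% of all genes, and 0 were lower, against 0.169%. Between LPS and apoptotic cells the counts were 0 higher after LPS, against 1.99%, and 0 lower, against 1.28%. In both comparisons with unstimulated cells, a count of 1 in 9 is near the background share for more peaks. The median change in peaks summed over 3 replicates was 2 after LPS, against 2 over all genes, and 1 with apoptotic cells, against 2. Leaving out a replicate also raised the share of all genes. Without LPS replicate 2 the count for LPS was 3 (*Mafg*, *Jdp2* and *Maff*), beside 25.7% of all genes, and 2 of the 9 (*Jdp2* and *Maff*) were higher after LPS than with apoptotic cells, beside 8.32%. For apoptotic cells the count was 2 without apoptotic cells replicate 1 (*Mafg* and *Jdp2*), beside 13.9%, and 2 without unstimulated replicate 1 (*Mafg* and *Batf2*), beside 9.96%.

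Most of the 71 sites appeared once: 62 (87.3%) had a peak in 1 of the 9 replicates, against 89.7% of all sites. There were peaks in at least 1 unstimulated replicate at 18 sites, in at least 1 LPS replicate at 29 and in at least 1 apoptotic cell replicate at 33. Over all 300608 sites these numbers were 68727, 122149 and 139243, in near the same proportions. None was listed in all 3 replicates of any condition, where 5881 of all sites were, and none in all 9, where 1372 were. The comparison of scores at sites listed in every replicate therefore had no site at the 9 genes. In at least 2 replicates of 1 condition there were 7 sites (9.86%), against 7.79% of all sites, at *Atf4*, *Batf3*, *Jdp2* (2), *Maff* (2) and *Mafg*.

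All 7 recurred in LPS replicates 1 and 3 and were missing from LPS replicate 2. Of all 22033 sites in at least 2 LPS replicates, 76.5% showed this same pair without replicate 2. Those are the narrow-peak LPS replicates. At 5 of the 7 (*Batf3*, both *Jdp2* sites, the *Maff* site at 15146 bp, and *Mafg*) no unstimulated replicate had a peak. These 5 of 71 stood beside 4.2% of all sites that had peaks in 2 or more LPS replicates and were unlisted without stimulation. Each had peaks in 2 of 3 LPS and 0 of 3 unstimulated replicates. The value of p = 0.4 (Fisher's exact test, two-sided) follows from that split, by which the sites were chosen. Sites in at least 2 unstimulated and no LPS replicates numbered 0, against 0.0862%. For apoptotic cells against unstimulated the counts were 0 in each direction, against 0.781% higher with apoptotic cells and 0.139% higher unstimulated. In at least 2 LPS and no apoptotic cell replicates were 2 sites, *Batf3* and the *Maff* site at 16746 bp, against 3.38%, and in the opposite direction 0, against 0.278%. Because all 7 rested on LPS replicates 1 and 3, leaving out either had to bring the 5 and the 2 to 0. The shares of all sites fell too. Without LPS replicate 1 they were 0.387% against unstimulated and 0.275% against apoptotic cells, and 0.269% and 0.169% without LPS replicate 3. Without apoptotic cells replicate 2 the 2 became 5, beside 3.75% of all sites.

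**Figure D4:**
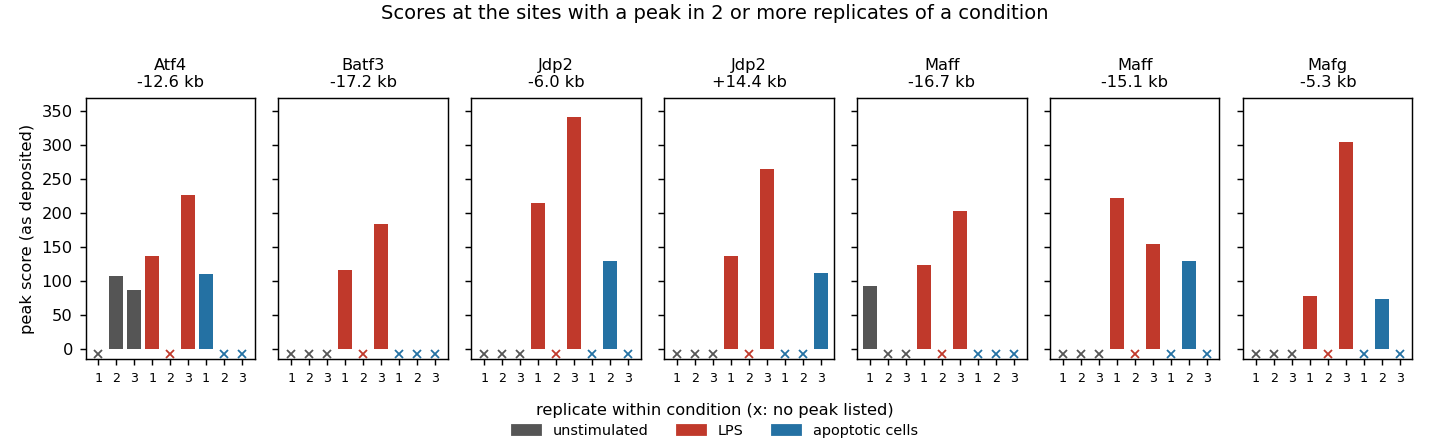
Deposited peak score at the 7 recurrent sites (panels, named by gene and distance from its nearest listed start) in the 9 replicates (bars by condition, crosses where no peak is listed). LPS replicates 1 and 3 have a bar in every panel and LPS replicate 2 in none, with LPS scores from 77.50 to 342.41.

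In position, the sites were often nearer to other genes. The gene's own start was the nearest listed start for 35 of the 64 sites of the 8 genes with a listed start and for 3 of the 7 recurrent ones (*Batf3* and both *Jdp2* sites). No site was within 1 kb of the gene's own start. Within 1 kb of any listed start were 7 of the 71 (9.86%), 5 of them at *Mafg*, against 2.07% of all sites. These shares are not like for like. The 71 sites were chosen for lying within 20 kb of a gene, while all sites include those far from any gene. Inside the bodies of the 9 genes there were 18 sites. The 88 peaks at the 9 genes scored 54.76 to 342.41 with a median of 125.78, near the 131.45 of all peaks and far from the plateau of about 3100 that the highest scores of the tables reach.

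Among 42 other bZIP genes, 3 (*Atf6*, *Creb1* and *Cebpb*) had more peaks in every LPS than in every unstimulated replicate, beside 9.87% of all genes, and 1 (*Creb5*) had fewer, beside 0.187%. With apoptotic cells 4 (*Jun*, *Atf5*, *Nfe2l2* and *Tef*) were higher throughout, beside 6.57%, and 0 lower, and *Cebpb* alone was higher after LPS than with apoptotic cells, beside 1.99%. With lists of 6 to 42 genes, these and the counts that follow are given as values, each to be read against the same shares of all genes. The lists overlap, and the calls at *Nfe2l2* and *Atf5* are counted again in the lists below. The median of 9 peaks at the other bZIP genes equalled that of all genes. The most peaks were at long genes: *Creb5* (413139 bp) had 78 in all, with 8, 10 and 8 unstimulated and 7, 7 and 6 after LPS, and *Bach2* (347697 bp) had 48. *Atf6*, a sensor of endoplasmic reticulum stress, had 2, 0 and 2 peaks unstimulated, 6, 6 and 6 after LPS, and 10, 0 and 9 with apoptotic cells. The fourth, *Atf7*, had 34.

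Of 7 partner genes of the small MAF and BATF proteins (*Nfe2l1*, *Nfe2l2*, *Nfe2*, *Bach1*, *Bach2*, *Irf4* and *Irf8*), 0 separated LPS from unstimulated and 1 separated apoptotic cells from unstimulated. This was *Nfe2l2*, which encodes NRF2, the main activator at antioxidant response elements, with 0, 2 and 0 peaks unstimulated, 3, 0 and 5 after LPS, and 4, 3 and 6 with apoptotic cells (exact permutation test, two-sided, p = 0.1). Of 6 genes that small MAF and NRF2 dimers control, 1 was higher in both comparisons. *Txnrd1*, a thioredoxin reductase, had 0 peaks in each unstimulated replicate, 4, 2 and 4 after LPS, and 1, 4 and 1 with apoptotic cells (exact permutation test, two-sided, p = 0.1 in both comparisons). *Gclc* and *Gclm*, the subunits of the enzyme that starts glutathione synthesis, and *Hmox1*, which degrades haem, overlapped between conditions; *Hmox1* had 0, 1 and 0 unstimulated, 1, 2 and 3 after LPS, and 0, 0 and 1 with apoptotic cells. Of 11 ATF4 target genes, 0 separated LPS from unstimulated, 1 (*Atf5*) separated apoptotic cells from unstimulated, and 1 (*Ppp1r15a*) was higher after LPS than with apoptotic cells. *Ppp1r15a*, which reverses the stress-induced block of translation, had 0, 2 and 2 peaks unstimulated, 2, 4 and 2 after LPS, and 1, 1 and 1 with apoptotic cells. Among 6 macrophage marker genes 1 (*Csf1r*) was higher with apoptotic cells throughout, and among 10 marker genes of other lavage cells 1 (*Cd3d*) was higher after LPS throughout; no other call was made in these lists. Peaks at marker genes are binding and not expression.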

How the data were processed

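FRA-1 ChIP-seq was done in 9 macrophage samples (3 conditions, 3 replicates each). The authors deposited 1 table per condition that lists genomic segments with a peak score for each replicate, unnormalised, with -1 for no peak, and a gene where one was assigned. The processing notes name BWA 0.7.14, bedtools, mm10 and GRCm38; the peak caller and the depth are not given in the sources used here. The study's text describes another run from the reads, whose output was not used here. For 1 LPS sample the records say that raw reads are lacking.

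Repeated rows were dropped, adjoining segments with equal scores were joined into peaks, and peaks of any replicate that touched or overlapped were merged into sites (Python 3.11.15, pandas 2.3.3, numpy 2.4.6, scipy 1.17.1, matplotlib 3.10.9). Joining and counting were tested on simulated peaks. Peaks were counted within 20 kb of each RefSeq protein-coding gene body, and distances run from a site's centre to the nearest listed start. Two-sided exact permutation tests compared the counts (adjusted over all genes), and Fisher's exact tests compared replicates with and without a peak at each site. Nothing says whether replicates were separate cultures beyond the animal names. The records list the same animals in each condition, but the scores name no animal, so the tests were unpaired. The p-values therefore treat matched samples as unmatched and measure only the spread between these samples.

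All 9 genes are described, with each site in at least 2 replicates of 1 condition, each gene's highest-scoring site and, of each other list, at most 4 genes, those with the most peaks; genes named for a call, single-replicate positions and the 2 *Batf* sites seen in 2 conditions were added after their values were seen. The 9 genes and all lists were chosen with earlier results of these data known. Settings varied were the window (5 and 50 kb), the authors' gene assignment alone, a minimum score, the gap between peaks, scaling to 10000 peaks, and each replicate left out. Peak sequences are not shown, as no genome was used here.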

Additional observations from a re-analysis of the deposited data

How the results depend on the processing

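The number of the 9 genes with non-overlapping replicates was 1 for LPS against unstimulated and 1 for apoptotic cells against unstimulated. It was 0 in both with the authors' gene assignment alone, with scores of at least 100 and with scores above the replicate median. These settings keep fewer peaks, and the authors assigned no segment to *Mafg*, the gene counted. Leaving out 1 replicate can only keep or raise this count. It gave 1 to 3, 1 to 2 and, for LPS against apoptotic cells, 0 to 2 genes. The share of all genes that were higher then ran from 12.2 to 25.7%, from 8.16 to 19.3% and from 2.81 to 8.53%. The 5 sites with peaks in 2 or more LPS replicates and none without stimulation became 2 within 5 kb, 0 with the authors' assignment and 1 above the replicate median. They ranged from 0 to 6 when a replicate was left out, beside 0.269 to 5.82% of all sites. The 2 sites in at least 2 LPS and no apoptotic cell replicates became 0, 0 and 1 under the same settings. With a replicate left out they ranged from 0 to 5, beside 0.169 to 4.09% of all sites. For the other settings no shares of all genes or sites are given here. The count of sites in at least 2 apoptotic cell and no unstimulated replicates stayed at 0 when a replicate was left out. It could not rise, because no site at the 9 genes had peaks in 2 or more apoptotic cell replicates. The ratio of mean peaks ranged over left-out replicates from 1.42 to 2.37 (LPS over unstimulated), 1.11 to 2.13 (apoptotic cells over unstimulated) and 0.818 to 1.71 (LPS over apoptotic cells). With the authors' assignment alone these ratios were 1, 2.5 and 0.4, and with scores above the replicate median 1.56, 2.11 and 0.737, so that LPS over apoptotic cells turned below 1 under both. Scaled to 10000 peaks they were 0.873, 0.801 and 1.09, within 50 kb 1.44, 1.14 and 1.26, and within 5 kb 2.43, 2.29 and 1.06. No paired analysis was possible because the tables give no animal for any replicate's scores, although the records list the same animals in each condition. Depth is unknown, and an unlisted peak may be one below the lowest listed score.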
